A study of Mus musculus with 6 samples.

Results

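Glycolysis, the handling of pyruvate and the tricarboxylic acid (TCA) cycle were followed through 36 genes in mouse CD8+ T cells with and without Nrdp1, before and after stimulation. The members were named genes, and each was read from the probe sets that the platform annotation assigns to that 1 gene symbol alone, taking the brightest by mean over the 6 arrays. Of the 36 genes, 33 had such a probe set, out of 18193 genes on the array that had one. Gpi1, Gapdh and Eno1 had none. The list divides into 19 glycolytic genes (glucose transport, the enzymes from hexokinase to pyruvate kinase, lactate dehydrogenase and lactate export), 5 genes of the pyruvate dehydrogenase step and 12 TCA cycle genes.

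The arrays held total RNA of naive splenic CD8+ T cells of the strain given as C57/BL6, either wild type (Nrdp1+/+) or Nrdp1-/-. Nrdp1 is the protein of the gene Rnf41, a ubiquitin ligase. Each genotype gave 3 arrays: untreated cells, cells kept for 4 h on immobilized anti-CD3 (5 µg/ml) with anti-CD28 (1 µg/ml) in solution, and cells kept for 8 h with both antibodies at the same doses. Anti-CD3 and anti-CD28 together engage the T cell receptor complex and its costimulatory receptor. There was 1 array for each genotype and condition. The number of mice behind each RNA, any pooling and how the Nrdp1 allele was made were not given in the sources used here. The extraction text of the labels speaks of whole colon, at odds with the titles and the cell type field. A change on stimulation was therefore measured on 2 arrays against 2, 1 of each genotype on either side, and the genotype difference on 3 arrays against 3. For these comparisons, every p-value rests on how far the arrays departed from equal changes in the 2 genotypes. It also rests on the spread of other genes of similar signal. The departure may be technical or a real difference between genotypes, and cannot be split here. No p-value rests on a known spread between mice.

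Glycolysis splits glucose into pyruvate in the cytosol, and pyruvate is either reduced to lactate and exported or carried into mitochondria, where the pyruvate dehydrogenase complex turns it into acetyl-CoA for the TCA cycle. Resting naive T cells rely largely on mitochondrial oxidation. After antigen receptor and CD28 signals they are known to raise glycolysis and lactate export before they divide. The transcription factors Myc, which binds the E-box CACGTG, and Hif1a, whose response element has the core ACGTG, are known to act on glycolytic genes.

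Promoters are shown for 4 members that the results turn on: Hk2, with the greatest rise among the members, Slc16a1 and Ldha, which rose and carry the E-box, and Pdk1, which fell and carries neither motif. Each run is the 250 bases before the transcript start, 5′ to 3′ on the strand of the gene, from RefSeq on GRCm38.p6. Capitals mark CACGTG, or ACGTG on either strand, which on the other strand reads CACGT and also lies inside every CACGTG. The intervals are chr6:82774455-82774704 (minus strand) for Hk2, chr3:104638414-104638663 (plus strand) for Slc16a1, chr7:46845554-46845803 (plus strand) for Ldha and chr2:71872974-71873223 (plus strand) for Pdk1.
Hk2: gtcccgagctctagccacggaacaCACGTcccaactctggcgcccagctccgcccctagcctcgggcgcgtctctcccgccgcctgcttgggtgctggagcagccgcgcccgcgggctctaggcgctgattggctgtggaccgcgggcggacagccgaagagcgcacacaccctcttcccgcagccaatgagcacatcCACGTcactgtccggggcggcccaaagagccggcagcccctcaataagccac
Slc16a1: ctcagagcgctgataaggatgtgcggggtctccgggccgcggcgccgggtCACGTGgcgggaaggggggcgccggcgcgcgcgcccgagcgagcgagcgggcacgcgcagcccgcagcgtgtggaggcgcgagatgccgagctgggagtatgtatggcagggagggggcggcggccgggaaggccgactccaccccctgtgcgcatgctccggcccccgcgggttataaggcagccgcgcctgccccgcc
Ldha: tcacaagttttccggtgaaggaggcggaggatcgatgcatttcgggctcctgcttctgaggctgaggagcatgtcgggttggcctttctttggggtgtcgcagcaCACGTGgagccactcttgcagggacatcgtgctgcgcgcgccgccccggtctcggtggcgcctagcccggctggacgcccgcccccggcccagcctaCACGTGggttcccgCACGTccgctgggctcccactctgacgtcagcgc
Pdk1: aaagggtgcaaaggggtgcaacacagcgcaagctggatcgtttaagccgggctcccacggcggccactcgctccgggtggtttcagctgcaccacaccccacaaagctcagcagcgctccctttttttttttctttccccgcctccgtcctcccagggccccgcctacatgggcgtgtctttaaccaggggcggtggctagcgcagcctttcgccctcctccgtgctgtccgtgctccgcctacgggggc
Hk2 held 2 ACGTG matches and no CACGTG. Slc16a1 held 1 CACGTG and Ldha held 2, with 1 further ACGTG outside them. The motif search covered 250 bases before to 50 after the start, on both strands. Of the 36 members, 34 had a promoter entry, and Slc2a3 and Idh3a had none. CACGTG was found for 4 of the 34 members (Ldha, Slc16a1, Pfkfb3 and Ogdh) and for 8.09% of all 27025 genes in the table, where a gene with several promoters counted if any of them held it. ACGTG outside CACGTG was found for 17 of the 34 members, in 12 of 18 glycolytic, 1 of 5 pyruvate and 4 of 11 TCA genes, beside 15.3% of all genes. Per promoter, CACGTG lay in 7.15% and ACGTG outside CACGTG in 13.6% of 32851 sequences of the same length. Within the glycolytic part, 6 of the 8 genes that rose at 8 h held ACGTG outside CACGTG, and so did 4 of the 6 that did not pass the test. CACGTG was held by 2 of the same 8 genes, Slc16a1 and Ldha, and by 1 of the same 6, Pfkfb3. Ogdh, the carrier in the TCA part, did not pass the test at 4 h or 8 h either. A match is a run of letters and not a measured binding site.

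Values are MAS5 signals, which summarise the probe pairs of a probe set, and each deposited array had been scaled to a trimmed mean of 500. Array medians lay between 61.5 and 68.6. A gene was tested if its signal reached the array median on at least 2 arrays, which kept 10838 genes. The targeted gene, Rnf41, read 728, 505 and 639 in wild-type cells (untreated, 4 h and 8 h) and 528, 437 and 477 in Nrdp1-/- cells. It was lower in the knockout in each condition, with a mean log2 difference of -0.36 ± 0.12 (SE) that did not pass the test (adjusted p = 0.128, limma with Benjamini-Hochberg adjustment), and it is not known whether the probes lie in the deleted part. All 7 measured CD8 T cell markers passed the filter on signal, and their summed signal was 68197 to 82110 across the arrays. Of 13 colon epithelium and muscle markers, 8 were below the median on every array. The preparations also held other cells' transcripts: 8 of 10 tested B cell markers were lower in the knockout arrays and 1, Ighm, was higher, and 6 of 12 tested myeloid markers were higher. Among all tested genes 2.57% were lower and 2.47% higher in the knockout. In bulk RNA, fewer cells of a type and less RNA per cell cannot be told apart.

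Of the 32 members tested, all lay at or above the array median on all 6 arrays, so none entered through the condition in which it was high. The other measured member, Slc16a3, a lactate exporter, read 32.9, 9.82 and 38.5 in wild-type and 25.1, 19.5 and 51.8 in knockout cells, below the median on each, and was not tested.

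Stimulation for 4 h raised 8 of the 32 members and lowered 2. Over all tested genes 8.01% rose and 5.51% fell. The glycolytic part held 7 of the 8 that rose and 1 of the 2 that fell, from 15 genes tested. In the TCA part 1 of 12 genes rose and none fell by limma at this threshold, and 2 of the 12 had an unadjusted p under 0.05. In the pyruvate part none of 5 rose and 1 fell. The median log2 change was 0.23 over the glycolytic genes, 0.08 over the pyruvate genes and 0.07 over the TCA genes, against -0.05 over all genes tested.

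After 8 h, 11 members were higher and 2 lower than in untreated cells, where 9.88% of all tested genes rose and 9.26% fell. The glycolytic part had 8 genes up and 1 down, the pyruvate part 0 up and 1 down, and the TCA part 3 up and 0 down. No other gene of the pyruvate or TCA part had an unadjusted p under 0.05 at 8 h by limma. Median log2 changes were 0.38, 0.12 and 0.16 for the 3 parts, and -0.07 for all genes. The change was above 0 for 9 of 15 glycolytic genes at each time. It was above 0 for 9 of 12 TCA genes at 4 h and 11 of 12 at 8 h. Over all tested genes the share above 0 was 43.9% at 4 h and 42.6% at 8 h. Within wild-type cells the glycolytic and TCA medians at 8 h were 0.33 and 0.12, and within Nrdp1-/- cells 0.38 and 0.16. The wild-type and knockout changes come from separate arrays: they had the same sign for all 15 glycolytic genes at 4 h and for 12 of 15 at 8 h, for 7 and 11 of the 12 TCA genes, and for 7377 and 8022 of the 10838 genes tested. The 4 h and 8 h comparisons share the untreated arrays, so their counts are not separate evidence. All 8 members that had risen at 4 h were also called at 8 h, as were both that had fallen, and Aldoa, Sdhb and Mdh2 were called at 8 h alone. No test compared the glycolytic with the TCA part, since their genes are not replicates.

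The calls lean on how limma estimated each gene's spread from 2 residual degrees of freedom. With a prior variance that ignores signal intensity, 1 of the 26 calls made on members over all contrasts was kept, Hk2 at 8 h (adjusted p = 0.0347). The number of members higher at 4 h was 3 without the wild-type untreated array, 4 without the knockout untreated array and 4 without the wild-type 4 h array. At 8 h it was 7 without the knockout untreated array and 7 without the knockout 8 h array. The split between parts moved with single arrays as well. At 4 h, 4 glycolytic and 3 TCA genes were higher without the knockout 4 h array, against 7 and 1 with all arrays, and 3 glycolytic and 1 TCA gene without the wild-type 4 h array. Without either untreated array no TCA gene was higher at 4 h, and the glycolytic genes numbered 3 (wild-type array left out) and 4 (knockout array left out). At 8 h, 1 TCA gene was higher without the wild-type untreated array and 1 without the knockout 8 h array, and the glycolytic count was 5 without the knockout untreated array. When all probe sets of a gene were averaged, 7 glycolytic and 0 TCA genes were higher at 8 h and 1 TCA gene was lower, so all 3 TCA rises were lost. The calls for Hk2 and Slc16a1 at both times, and those for Tpi1, Pgk1, Pgam1 and Idh3a at 8 h, were kept whichever array was left out. Every other stimulation call of a member was lost without at least 1 of the arrays.

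**Figure D1:**
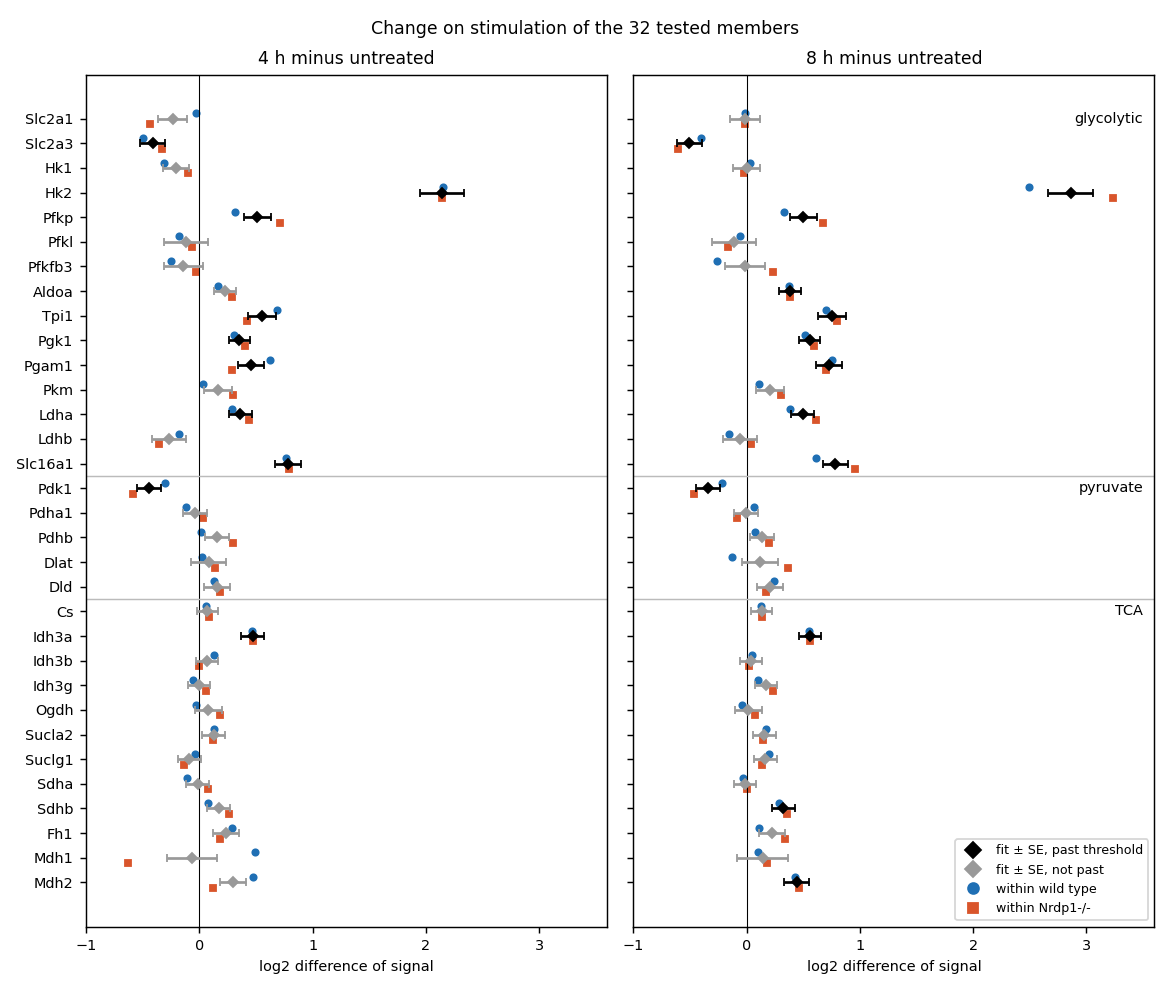
Log2 change from untreated for the tested members at 4 h and 8 h, by part, with limma estimates and SE as error bars and the wild-type and knockout values as separate points; the marker style shows whether the change passed the adjusted threshold of 0.05. The limma estimate for Hk2 stands at 2.14 and 2.86. Of the other 14 tested glycolytic genes, 8 have estimates above 0 at each time, up to 0.78, and the rest reach down to -0.51. The estimates of the TCA genes lie between -0.09 and 0.56. Points of a single genotype can lie outside these ranges, as does Mdh1 in the knockout at 4 h, at -0.63.

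Glucose enters T cells through the transporters Slc2a1 and Slc2a3. Slc2a3 read 4739.7, 3356 and 3581 in wild-type cells (untreated, 4 h and 8 h) and 5075, 4049 and 3329 in Nrdp1-/- cells. Both stimulated conditions were below both untreated values. The log2 change was -0.41 ± 0.11 at 4 h (adjusted p = 0.0332) and -0.51 ± 0.11 at 8 h (adjusted p = 0.0102), which is 1.33-fold and 1.42-fold lower. Its second-brightest probe set was at -0.57 and -0.70, whereas the mean over all 4 of its probe sets at 4 h was 0.13 (adjusted p = 0.766), with 2 of the 4 below the array median on every array. Slc2a1 did not pass the test, with log2 changes of -0.24 at 4 h and -0.02 at 8 h.

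Hexokinase 2, the inducible enzyme that traps glucose as glucose 6-phosphate, changed most. Hk2 read 144, 652 and 829 in wild-type cells (untreated, 4 h, 8 h) and 135, 610 and 1303 in Nrdp1-/- cells. Every stimulated array was more than 4 times its untreated counterpart, and the knockout 8 h array was the highest. The log2 change was 2.14 ± 0.20 at 4 h (4.42-fold, adjusted p = 4.22e-05) and 2.86 ± 0.20 at 8 h (7.26-fold, adjusted p = 3.77e-06). Hexokinase 1, the constitutive form, did not pass the test and stood at a log2 change of -0.21 at 4 h (adjusted p = 0.285), and its 8 h changes were 0.03 in wild-type and -0.03 in knockout cells.

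In the steps between hexokinase and pyruvate, phosphofructokinase commits sugar to glycolysis. Its platelet form Pfkp read 2569, 3195 and 3225 in wild-type cells and 2460.4, 4030.2 and 3933 in the knockout. The stimulated arrays of both genotypes lay above both untreated arrays, with a log2 change of 0.51 ± 0.12 at 4 h (adjusted p = 0.0155) and 0.50 ± 0.12 at 8 h (adjusted p = 0.0138). Its 2 other probe sets gave 0.52 and 0.52 at 4 h and 0.78 and 0.50 at 8 h. The liver form Pfkl and Pfkfb3, whose product makes the activator fructose 2,6-bisphosphate, had log2 changes between -0.14 and -0.02 and did not pass the test.

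Triosephosphate isomerase interconverts the products of aldolase. Tpi1 read 917, 1482 and 1496 in wild-type cells and 1013, 1359 and 1768 in Nrdp1-/- cells. All 4 stimulated values were above the untreated ones, and the log2 change was 0.56 ± 0.13 (adjusted p = 0.0138) and then 0.75 ± 0.13 (adjusted p = 0.00218). Aldolase A, one step earlier, read 5965, 6699 and 7752 and, in the knockout, 6100.2, 7460.4 and 7965. Aldoa had also moved apart from its untreated values on each stimulated array, but passed the test only at 8 h, at 0.38 ± 0.10 (adjusted p = 0.018) against 0.23 at 4 h (adjusted p = 0.146). Of its 4 other probe sets, 3 were higher at 8 h by 0.23 to 0.42, and the dimmest was lower, at -0.20 and -0.16. The 8 h call for Aldoa was lost under 8 of 15 alternative settings, among them the mean of its probe sets (0.23, adjusted p = 0.164) and leaving out any one of the untreated or 8 h arrays.

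Phosphoglycerate kinase makes the first ATP of the pathway. Pgk1 read 5237, 6476 and 7493 in wild-type cells and 5571, 7360.1 and 8426 in the knockout. The values rose at each time in both genotypes, by 0.35 ± 0.09 at 4 h (adjusted p = 0.0306) and 0.56 ± 0.09 at 8 h (adjusted p = 0.00238) on the log2 scale. The mean over its 3 probe sets at 8 h was 0.93, and the 4 h call for Pgk1 was lost when any one of the untreated or 4 h arrays was left out. Phosphoglycerate mutase follows it. Pgam1 read 1556, 2407 and 2629 in wild-type and 2015, 2461 and 3287 in knockout cells. Its stimulated arrays were all above the untreated ones, with log2 changes of 0.46 ± 0.12 (adjusted p = 0.0245) and 0.73 ± 0.12 (adjusted p = 0.00168).

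Glyceraldehyde 3-phosphate dehydrogenase, between aldolase and Pgk1, was read from the array's control probe sets, which were outside the test. Gapdh also had 3 probe sets annotated to several symbols, which were not used. The 3′ control for Gapdh read 5032, 5519 and 6684 in wild-type and 5151, 6725 and 7396 in knockout cells. Its mean log2 changes were 0.26 and 0.47, and the probe sets for the middle and 5′ end of the transcript gave 0.44 and 0.51 at 8 h. The ratio of 3′ to 5′ signal for Gapdh was 0.815 to 0.894 over the arrays.

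At the lactate branch, Ldha, the subunit that favours reduction of pyruvate to lactate, read 6494, 7909.8 and 8450.2 in wild-type cells and 6568, 8925 and 10025 in the knockout. The stimulated arrays were all higher than the untreated ones. The log2 change was 0.36 ± 0.10 at 4 h (adjusted p = 0.0332) and 0.49 ± 0.10 at 8 h (adjusted p = 0.00602). The 4 h call for Ldha was lost when any one of the untreated or 4 h arrays was left out, and the 8 h call without the knockout untreated array. The other subunit, Ldhb, had log2 changes of -0.27 and -0.06 and did not pass the test.

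Slc16a1, the monocarboxylate transporter MCT1 that carries lactate across the plasma membrane, read 2575, 4392 and 3934 in wild-type and 3064, 5318 and 5955 in Nrdp1-/- cells. Both times were above both untreated arrays, and the knockout array was the higher one in each condition. It rose by 0.78 ± 0.11 at 4 h (1.72-fold, adjusted p = 0.00102) and 0.78 ± 0.11 at 8 h (1.72-fold, adjusted p = 0.000893) on the log2 scale. After Hk2 this was the greatest change among the tested members at both times. Averaged with its other probe set, which was below the median on every array, Slc16a1 stood at 1.68 at 8 h.

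**Figure D2:**
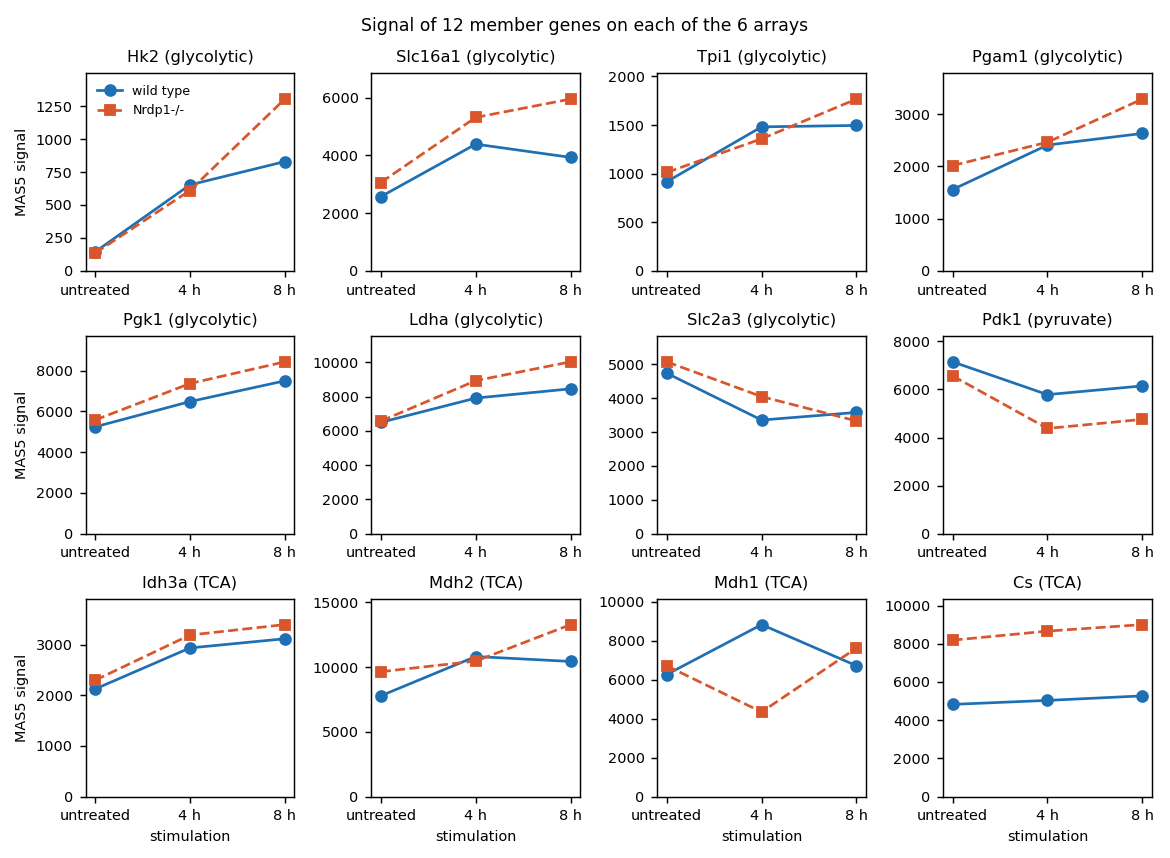
MAS5 signal (linear scale from 0) of 12 members on each of the 6 arrays, 1 point per array, wild type as circles with solid lines and Nrdp1-/- as squares with dashed lines. Hk2 climbs from 144 and 135 to 829 and 1303, Slc2a3 and Pdk1 are lower after stimulation, Mdh1 goes opposite ways in the genotypes at 4 h, and the Cs lines run apart and nearly level.

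At the entry of pyruvate into mitochondria, Pdk1, a kinase that inhibits pyruvate dehydrogenase, was the one gene of 5 that changed. It read 7148, 5784 and 6146 in wild-type cells and 6565, 4378 and 4755 in the knockout. All 4 stimulated arrays were below both untreated arrays, with log2 changes of -0.44 ± 0.10 (adjusted p = 0.017) and -0.34 ± 0.10 (adjusted p = 0.0425). The 3 other Pdk1 probe sets differed by -0.09, -0.40 and -0.52 at 4 h and by -0.28, -0.45 and -0.55 at 8 h.

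The catalytic subunits of the complex stayed under the threshold. Pdha1, part of its first enzyme, read 3812, 3524 and 3990.1 in wild-type and 3570.2, 3651 and 3374 in knockout cells, and its stimulated and untreated values overlapped. Pdhb, Dlat and Dld, the partner subunit and the enzymes that follow in the complex, had log2 changes of 0.08 to 0.15 at 4 h and 0.12 to 0.21 at 8 h. The probe sets of Dlat differed: its second-brightest stood at 0.25 and 0.58, and its dimmest at -0.06 and 0.09.

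Early in the cycle, Idh3a, the catalytic subunit of the NAD-dependent isocitrate dehydrogenase, rose at both times. It read 2126, 2939 and 3121 in wild-type cells and 2299, 3194 and 3401 in Nrdp1-/- cells. The stimulated arrays stood clear of the untreated ones, and the change was nearly the same in either genotype. The log2 change was 0.47 ± 0.10 at 4 h (1.39-fold, adjusted p = 0.0105) and 0.56 ± 0.10 at 8 h (1.47-fold, adjusted p = 0.00325). The mean over its 4 probe sets passed the test at neither time. The other subunits of the same enzyme, Idh3b and Idh3g, had log2 changes of 0.07 and 0.00 at 4 h and 0.04 and 0.17 at 8 h, below the threshold. Ogdh, of the 2-oxoglutarate dehydrogenase complex, read 1256, 1233 and 1223 in wild-type and 1109, 1260.2 and 1166 in knockout cells, with overlapping groups.

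Later in the cycle, Sdhb and Mdh2 were called at 8 h. Sdhb, the iron-sulphur subunit of succinate dehydrogenase, read 4619.9, 4879.8 and 5645 in wild-type cells and 4474, 5364 and 5740.3 in the knockout, a log2 change of 0.32 ± 0.10 at 8 h (adjusted p = 0.0414). Mdh2, the mitochondrial malate dehydrogenase, read 7777, 10813 and 10431 in wild-type cells and 9641, 10458 and 13276 in the knockout, a log2 change of 0.44 ± 0.11 at 8 h (adjusted p = 0.0194). For both genes the 8 h arrays lay above both untreated arrays, and the margin was narrower for Mdh2, where the untreated knockout array was close to the stimulated wild-type ones. The second Mdh2 probe set was at 0.17 at 8 h. The call for Sdhb was lost under 9 of 15 settings, including leaving out any one of the untreated or 8 h arrays, and that for Mdh2 under 5, including leaving out the wild-type untreated or the knockout 8 h array.

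The remaining enzymes of the cycle did not pass the test. Suclg1, of succinyl-CoA synthetase, read 2195, 2142 and 2515 in wild-type and 2416, 2192 and 2652 in knockout cells, a log2 change of -0.09 at 4 h, lower in both genotypes, and of 0.17 at 8 h, higher in both. Fh1, fumarate hydratase, read 2150.2, 2622 and 2317 in wild-type and 2247, 2545 and 2837 in knockout cells, and its log2 changes were 0.23 and 0.22 (adjusted p = 0.216 and 0.208). Sdha, the flavoprotein partner of Sdhb, stood at -0.02 and -0.01, but its second-brightest probe set at -0.31 and -0.17. Sucla2 stood at 0.13 and 0.16.

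Mdh1, the cytosolic malate dehydrogenase, was the member with the least even readings. Its brightest probe set read 6265, 8827 and 6716 in wild-type cells and 6711, 4343 and 7624 in the knockout. At 4 h the wild-type value was the highest and the knockout value the lowest of the 6. The next probe set showed the same opposition, while another read 3957 to 4668 over all arrays with a 4 h difference between genotypes of 0.01. Both probe sets with the opposition are of the kind whose probes can also match other transcripts. So are the one read for Tpi1 and all those of Aldoa. The other Tpi1 probe sets, not of this kind, rose by 0.59 and 0.42 at 4 h and by 0.73 and 0.69 at 8 h. The second Mdh2 probe set, also not of this kind, went from 6839 to 7994 in wild-type and from 7096 to 6343 in knockout cells at 4 h. What the kind of probe set contributes was not tested.

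From 4 h to 8 h of stimulation, 0 of the 32 members changed by limma in either direction, where 0.0185% of all tested genes rose and 0.0277% fell. Of the 32, 26 had a positive difference, beside 48.3% of all tested genes. An unadjusted p under 0.05 by limma was found for 3 of the 32 members and for 907 of the 10838 genes tested. The wild-type and knockout differences had the same sign for 17 of the 32 members and for 5439 of all tested genes. Hk2 had the greatest difference, 0.72 ± 0.20 (adjusted p = 0.29), with 0.34 within wild-type and 1.09 within knockout cells. Pgam1 was next at 0.27 ± 0.12 (adjusted p = 0.568). Suclg1, the first of the TCA genes, followed at 0.25 ± 0.10 (adjusted p = 0.538). Leaving out 1 array gave at most 1 call among the members.

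Between genotypes, averaged over the 3 conditions, Cs and Slc16a1 were higher and Pkm was lower in Nrdp1-/- cells, so 2 of 32 members rose and 1 fell. Among all tested genes 2.47% were higher and 2.57% lower. Citrate synthase, which joins acetyl-CoA to oxaloacetate to open the cycle, read 4825, 5033 and 5270.3 in wild-type cells and 8186, 8661 and 9002 in Nrdp1-/- cells. The lowest knockout value was well above the highest wild-type value, and neither genotype changed much on stimulation. The log2 difference for Cs was 0.77 ± 0.08 (1.71-fold, adjusted p = 0.000114), at 0.76 untreated, 0.78 at 4 h and 0.77 at 8 h. Its other 2 probe sets differed by 0.70 and 0.94 in the same direction.

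Pkm, pyruvate kinase of muscle and proliferating cells, read 1108, 1134 and 1199 in wild-type cells and 756, 932 and 931 in knockout cells. The groups did not overlap, and the log2 difference was -0.40 ± 0.10 (1.32-fold lower, adjusted p = 0.0483). It was near the threshold, and the call for Pkm was lost under 10 of 15 alternative settings. The signals of Slc16a1 given above overlapped between genotypes when conditions were mixed, but the knockout was higher by 0.25, 0.28 and 0.60 on the log2 scale within the 3 conditions, a mean of 0.37 ± 0.09 (adjusted p = 0.0406). That call was lost under 5 of 15 settings: without the wild-type 8 h array (0.26, adjusted p = 0.215), without the knockout 8 h array (0.26, adjusted p = 0.223), with no filter, with no intensity trend, and with the mean of its probe sets, which gave 0.17 (adjusted p = 0.706). Median genotype differences were 0.15 over the glycolytic, -0.10 over the pyruvate and 0.03 over the TCA genes, and -0.01 over all genes. Pdk1 was lower in the knockout by 0.30 without passing the test (adjusted p = 0.0815).

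Markers of other cells moved with genotype in the same arrays. The summed signal of the 11 measured B cell markers was 32678 to 36701 in wild-type and 25184 to 34726 in knockout cells. Without Ighm, a choice made after its values were seen, the sums were 14167 to 16348 and 2953 to 3224. The summed myeloid markers were 2015 to 2218 in wild-type cells and 13664, 8683 and 3073 in knockout cells (untreated, 4 h and 8 h). Of 10 memory-like CD8 T cell markers, 7 were higher in the knockout, beside 2.47% of all tested genes. Their sums were 43281 to 50803 in wild-type and 51815 to 58559 in knockout cells. Of 4 tested naive T cell markers, 0 passed the test in either direction. The naive sums were 56430 to 63612 in wild-type and 50157 to 63178 in knockout cells. No B cell or memory-like marker was below the median on every array, and of the myeloid ones Itgam was. The part of these cells in the differences for Cs, Pkm and Slc16a1 was not tested. On stimulation, 6 of the 12 tested myeloid markers and 1 of 10 B cell markers were lower at 8 h, beside 9.26% of all tested genes. The part of these cells in the 8 h changes was not tested either.

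**Figure D3:**
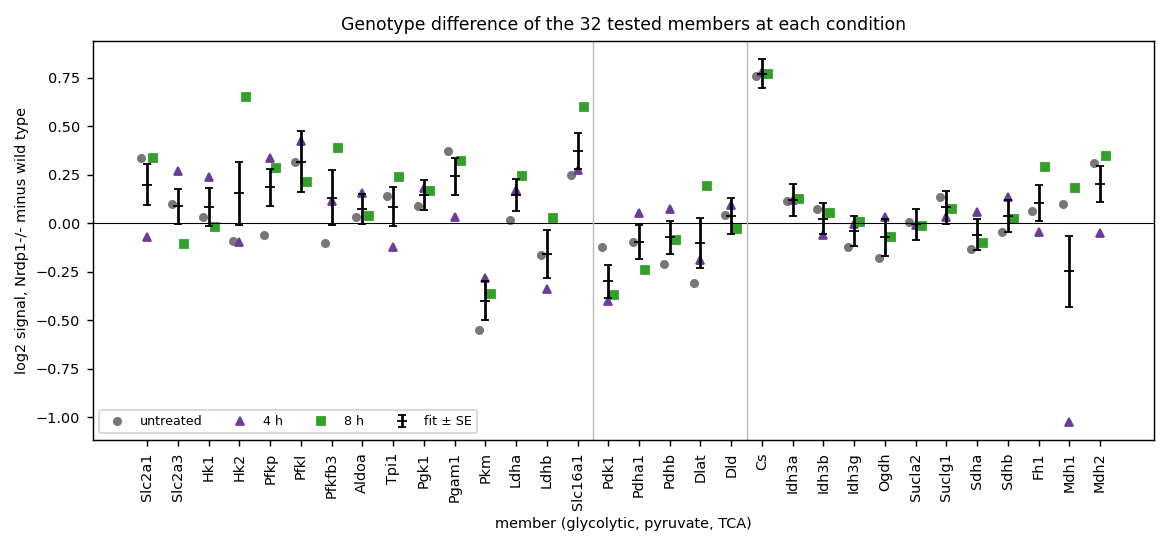
Log2 difference between Nrdp1-/- and wild-type cells for the tested members, by part, with the limma mean and SE and 1 point for each of the 3 conditions. Cs has 3 points between 0.76 and 0.78, while Mdh1 ranges from -1.02 at 4 h to 0.18 at 8 h.

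Cs lies in the same gene neighbourhood as the deleted gene. In RefSeq's gene order on GRCm38.p6 it is the fifth protein-coding gene from Rnf41, with 4 genes between them. This was looked up after the Cs values were seen. Over all tested genes, 2.47% were higher and 2.57% lower in Nrdp1-/- cells. Of the 20 nearest protein-coding genes, 10 on each side, 18 were tested, and 4 were higher and 0 lower in Nrdp1-/- cells: Pan2 (0.73 ± 0.10), Cnpy2 (0.98 ± 0.11), Cs and Coq10a (0.58 ± 0.11), with adjusted p from 0.000245 to 0.0105 by limma. They form a consecutive run on one side of Rnf41. Between that run and Rnf41, Slc39a5 was not tested, Ankrd52 stood at 0.85 ± 0.24 (adjusted p = 0.0764) and Nabp2 at 0.76 ± 0.24 (adjusted p = 0.108), below the threshold. On the other side the 10 genes had log2 differences between -0.15 and 0.21, and the nearest, Smarcc2, stood at -0.05.

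**Figure D4:**
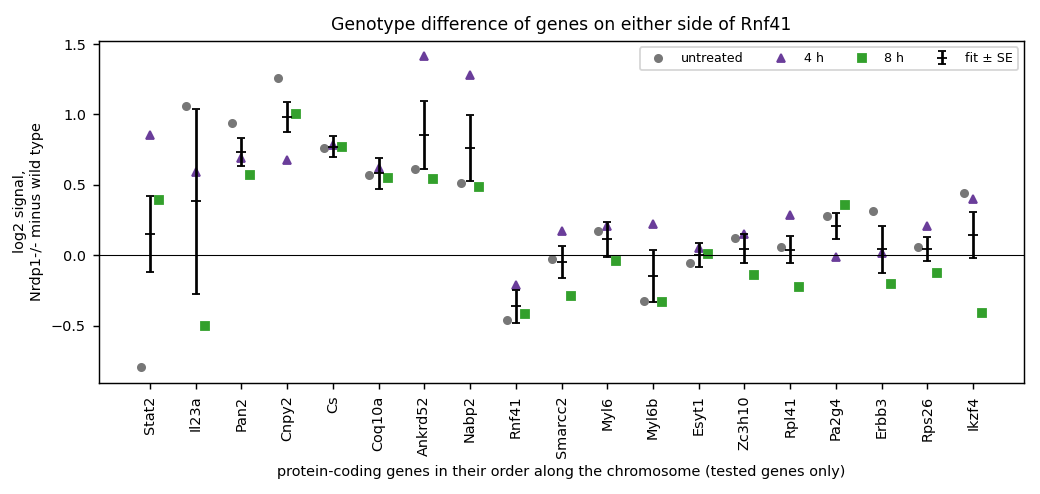
Log2 difference between Nrdp1-/- and wild-type cells for Rnf41 and the 18 tested of its 20 nearest protein-coding neighbours, in chromosomal order, with the limma mean and SE as bars and 1 point for each of the 3 conditions. The genes from Pan2 to Nabp2 on one side have means between 0.58 and 0.98, and those on the other side have means between -0.15 and 0.21.

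Whether stimulation acted differently in the genotypes was tested with an interaction term, setting both stimulated times against untreated. The prior degrees of freedom of this fit were infinite. Each SE and p-value therefore rests on the spread of genes of similar signal and not on the gene's own scatter. Of the 32 members 0 passed in either direction, where 0.0923% of all tested genes were more and 0.129% less induced in the knockout. The one member with an unadjusted p under 0.05 was Mdh1, at -0.52 ± 0.23 (adjusted p = 1), whose uneven 4 h arrays are described above. For Hk2 and Pfkp the interaction estimates were 0.37 ± 0.33 and 0.37 ± 0.23, and for Slc16a1 0.19 ± 0.23, all with adjusted p = 1. With 1 array per genotype and time these SEs span differences as large as many of the members' changes on stimulation, so equal induction is not shown.

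Genes of the same pathways outside the member list were read in the same fit. Their counts stand beside 8.01% of all tested genes higher and 5.51% lower at 4 h. At 8 h these shares were 9.88% and 9.26%. Of 25 other glycolysis genes, among them the muscle, liver and testis isoforms, 14 were tested and 0 passed by limma at either time, with 2 unadjusted p under 0.05 at 4 h and 3 at 8 h. Of 7 tested genes of pyruvate transport and regulation, Pdk3, another pyruvate dehydrogenase kinase, rose by 0.51 ± 0.15 and 0.60 ± 0.15 (adjusted p = 0.0467 and 0.0184). It moved opposite to Pdk1. Of 13 tested TCA-related genes, 2 rose at 4 h and 3 at 8 h. Sdhaf1, an assembly factor of succinate dehydrogenase, rose by 1.01 ± 0.11 and 0.82 ± 0.11. Suclg2, the GTP-forming subunit of succinyl-CoA synthetase, rose by 0.75 ± 0.12 and 0.38 ± 0.12, and Pck2, the mitochondrial enzyme that makes phosphoenolpyruvate from oxaloacetate, by 0.95 ± 0.14 at 8 h. In the pentose phosphate pathway 7 genes were tested. Tkt, transketolase, rose by 0.45 ± 0.09 and 0.44 ± 0.09, and H6pd, which acts in the endoplasmic reticulum, fell by 0.72 at 8 h.

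Among 16 tested regulators of these pathways, 1 rose at each time, and 1 fell at 4 h and 2 at 8 h. Over all tested genes 8.01% rose and 5.51% fell at 4 h, and 9.88% and 9.26% at 8 h. Myc read 1117, 4473 and 5113 in wild-type cells and 1199, 5854 and 6960.1 in Nrdp1-/- cells. All stimulated arrays were about 4 or more times the untreated level, and the log2 change was 2.14 ± 0.11 and 2.36 ± 0.11 (adjusted p = 4.82e-07 and 2.16e-07). Hif1a transcript did not pass the test, at 0.04 ± 0.10 and 0.12 ± 0.10, and Txnip, an inhibitor of glucose uptake, stood at -0.38 at 4 h (adjusted p = 0.0507) and fell by 0.46 at 8 h (adjusted p = 0.0179). Arnt, the partner of Hif1a in DNA binding, fell by 0.65 at 4 h and was lower in Nrdp1-/- cells by 1.06 ± 0.10 (adjusted p = 6.57e-05). Epas1 fell by 0.94 at 8 h (adjusted p = 0.0428).

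Of 13 tested hypoxia response genes outside glycolysis, 4 rose and 1 fell at each time. Over all tested genes 8.01% rose and 5.51% fell at 4 h, and 9.88% rose and 9.26% fell at 8 h. Bhlhe40, a transcriptional repressor, rose by 2.19 ± 0.15 and 2.09 ± 0.15. Vegfa, an angiogenic growth factor, read 33.5 and 58.3 in untreated wild-type and knockout cells, below the array median, and 129.7 to 262 in stimulated cells. Ndrg1 rose by 0.77 at both times and Ddit4, an inhibitor of mTORC1, by 0.41 and 0.45. Plin2, a lipid droplet coat protein, fell by 0.66 at 4 h and Mxi1, a Myc antagonist, by 0.47 at 8 h. Between genotypes 2.47% of all tested genes were higher and 2.57% lower in the knockout. Of the 13, 3 were higher in the knockout (Plin2 by 1.08, Bhlhe40 by 1.01 and Egln3 by 0.98) and 1 was lower. That one, Adm, which encodes adrenomedullin, read 858, 759 and 502 in wild-type and 53.8, 37.8 and 72.1 in Nrdp1-/- cells.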

How the data were processed

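Naive CD8+ T cells of 2 genotypes were measured in 3 conditions on 1 Affymetrix array each. The authors deposited probe set intensity values; per the submitters' processing notes they were made with MAS5, whose version and settings were not given in the sources used here. Each array's mean after removing 2% of values at either end was 500. Of 45101 probe sets, 34945 carried 1 gene symbol in the platform annotation, 932 several and 9160 were unlisted here; 64 controls were left out. Symbols were checked through Entrez identifiers for 34741 probe sets, and 0 changed.

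Values were analysed as log2(signal + 4.45), the constant being the 10th percentile, so differences of dim genes are understated; their number of arrays limits precision. Genes at or above the array median on at least 2 arrays (10838) were fitted with limma 3.58.1 in R 4.3.3 (lmFit, eBayes with intensity trend), with condition and genotype as additive terms; a second fit added genotype by stimulation. Residual degrees of freedom were 2 and 1, prior ones 8.99 and infinite. Threshold: Benjamini-Hochberg adjusted p under 0.05. Genotype thus served to pair the arrays. The fit was run on simulated data drawn from its own model, with the intensity trend and additive effects. That run therefore could not test those assumptions. Alternatives were other normalizations, pseudocounts, filters, probe set summaries, variance priors, terms and leaving out each array. Members and gene lists were chosen with earlier results of these data known. All members may be named, with values on every array for those past the threshold in the additive fit and 1 of each enzyme step; of each other list, up to 4 genes per contrast past the threshold were named, plus Myc, Hif1a and Txnip.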

Additional observations from a re-analysis of the deposited data

Results flagged for a closer look

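Ogdh, of the 2-oxoglutarate dehydrogenase complex, moved in opposite directions on stimulation in the genotypes: its log2 changes were -0.03 and -0.04 in wild-type cells at 4 h and 8 h and 0.18 and 0.07 in Nrdp1-/- cells. The mean difference, Nrdp1-/- minus wild type, was 0.16, and it did not pass the interaction test (adjusted p = 1, limma).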

How the results depend on the processing

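Of the 26 calls made on members, 26 were kept with a pseudocount of 1, with a pseudocount at the 30th percentile and with a filter at the 70th percentile, 25 under quantile normalization, 20 without a filter, 19 under median centring, 15 when all single-symbol probe sets of a gene were averaged and 1 without the intensity trend. Of 23 calls on stimulation, 8 were kept without the genotype term, and of 3 genotype calls 2 were kept on the stimulated arrays alone. Leaving out 1 array kept 14 (without the untreated knockout array) to 22. The only change of direction was Slc2a3 at 4 h with the mean of probe sets, 0.13 (adjusted p = 0.766). Causes were not tested.

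Without the intensity trend the counts over all genes, higher and lower, were 83 and 4 at 4 h (868 and 597 in the main fit), 103 and 5 at 8 h (1071 and 1004), 0 and 0 for 8 h against 4 h (2 and 3), 42 and 57 for genotype (268 and 279) and 0 and 0 for the interaction (10 and 14); for members they were 0 and 0 at 4 h, 1 and 0 at 8 h and 0 and 0 for genotype. Without the genotype term, which pairs the arrays, genes higher and lower were 374 and 92 at 4 h, 585 and 198 at 8 h and 0 and 0 for 8 h against 4 h, and members 1 and 0 at 4 h and 6 and 1 at 8 h. With the mean of probe sets 346 genes were lower at 4 h, 515 lower at 8 h, 1 higher from 4 h to 8 h, 182 lower by genotype, and 0 and 0 passed the interaction; members were 0 lower at 4 h, 7 higher at 8 h, 1 higher and 0 lower by genotype. Median centring gave 386 genes lower at 4 h, 7 higher and 33 lower from 4 h to 8 h and 5 and 8 in the interaction, and members 1 lower at 4 h, 1 lower at 8 h and 0 lower by genotype. Quantile normalization gave 4 and 4 in the interaction and 0 members lower by genotype. Without a filter 1 member was lower at 8 h, and 1 was higher and 0 lower by genotype. A pseudocount at the 30th percentile gave 8 genes lower from 4 h to 8 h.

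The TCA median at 4 h was 0.060 under quantile normalization, 0.094 under median centring and 0.11 with the mean of probe sets; at 8 h it was 0.12 under median centring, and for genotype -0.0083 with the mean of probe sets. The glycolytic median at 8 h was 0.44 with no filter or the filter at the 70th percentile and 0.23 with the mean of probe sets.

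Leaving out each array in turn, genes higher ranged from 577 to 1065 and lower from 218 to 936 at 4 h, from 686 to 1323 and from 350 to 1533 at 8 h, from 17 to 46 and from 13 to 77 for 8 h against 4 h, and from 267 to 313 and from 267 to 324 for genotype. Members higher ranged from 3 to 9 and lower from 0 to 2 at 4 h, from 7 to 11 and from 0 to 2 at 8 h, from 0 to 1 higher for 8 h against 4 h, and from 1 to 4 higher for genotype. Medians at 4 h ranged from 0.17 to 0.29 (glycolytic), from -0.040 to 0.15 (pyruvate) and from 0.075 to 0.11 (TCA); at 8 h from 0.32 to 0.41, from -0.0077 to 0.20 and from 0.13 to 0.18; for genotype from 0.13 to 0.18, from -0.15 to -0.01 and from 0.0095 to 0.086. Where an array was left out, the remaining array of its condition was taken to vary like the others.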
